A study of Mus musculus with 2 samples.

Results

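The 6 genes described here encode the ISG15 modifier (Isg15), the enzymes that attach it to other proteins (the E1 Uba7, the E2 Ube2l6 and the E3 ligases Herc6 and Trim25) and the protease that takes it off again (Usp18). They were chosen by symbol among the 27998 genes counted, and all 6 were found, each with 1 entry. The study compared the immune cells of B16F10 tumors, grown from a mouse melanoma line under the skin, between control hosts (Usp18f/f) and hosts meant to lack Usp18 in myeloid cells (Usp18f/f LysM-Cre). All hosts were C57BL/6 mice, and both groups carry the floxed Usp18 alleles. Cre sits in the Lyz2 locus, which is active in macrophages, monocytes and neutrophils and less evenly in dendritic cells, so lymphocytes are not its target. Tumors were taken at day 14, live CD45+ cells were sorted, and 4 tumors per group were pooled into 1 droplet single-cell RNA library. No group has a replicate, so each difference is one between a pair of pools, no test between groups can be made, and every interval given covers counting error only.

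ISG15 is a small ubiquitin-like protein whose gene is among those most strongly switched on by type I interferon. Uba7 activates it, Ube2l6 carries it, and an E3 ligase hands it to a target protein. In the mouse Herc6 is the main such ligase, and Trim25, better known as a ubiquitin ligase that acts on the RNA sensor RIG-I, has also been described as one. Usp18 cleaves ISG15 from its targets and, apart from that activity, binds the interferon receptor subunit Ifnar2 and dampens its signal, and its own transcription is driven by interferon.

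The genes lie on 5 chromosomes in the GRCm38 assembly (GENCODE M21). Isg15 (ENSMUSG00000035692) is at chr4:156199424-156200818 on the minus strand. The other members are on the plus strand, with Uba7 (ENSMUSG00000032596) at chr9:107975505-107984060, Ube2l6 (ENSMUSG00000027078) at chr2:84798828-84810335 and Trim25 (ENSMUSG00000000275) at chr11:88999376-89020293. Herc6 (ENSMUSG00000029798, chr6:57581000-57664632) and Usp18 (ENSMUSG00000030107, chr6:121245906-121270917) share chromosome 6. Uba7 overlaps Gm20661 on the same strand, which held 83 counted molecules against 2225 of Uba7, and reads of the pair may be split between them. Usp18 overlaps the noncoding Gm44148 on the opposite strand, which held 5 molecules against 3314.

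Interferon reaches such genes through the factor ISGF3, which binds the interferon-stimulated response element (ISRE), so the promoters are shown before the values. RefSeq promoters (GRCm38.p6, from 250 bases before to 50 after the start) were matched for Isg15, Uba7, Ube2l6, Herc6 and Trim25. The start here is that of RefSeq, which differs from the GENCODE start given above for Uba7, Herc6 and Trim25. The Uba7 match and part of the Trim25 stretch below therefore lie inside the GENCODE gene. The longer ISRE letters, GAAA, any 2 bases and GAAA again, searched on both strands, lay in 1 of these 5, that of Isg15, and in 3.44% of 32851 promoters of that length. Isg15 held it as 3 overlapping copies spanning 78 to 57 bases before the start. A shorter form, AAANNGAAA, which lies inside the longer motif, was found in Isg15 and Uba7 and in 10.6% of all promoters. TTCNNNGAA, the GAS element, was in none of the 5 and in 8.30% of all. The last 100 bases before the start follow for 4 members, 5′ to 3′ on the gene's own strand, with the copies of the longer motif in capitals.
Isg15 (chr4:156200819-156200918, minus): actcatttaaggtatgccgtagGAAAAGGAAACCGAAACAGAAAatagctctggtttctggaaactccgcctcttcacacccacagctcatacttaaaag
Ube2l6 (chr2:84798728-84798827, plus): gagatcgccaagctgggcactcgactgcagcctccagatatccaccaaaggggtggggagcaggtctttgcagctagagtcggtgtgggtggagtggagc
Herc6 (chr6:57580892-57580991, plus): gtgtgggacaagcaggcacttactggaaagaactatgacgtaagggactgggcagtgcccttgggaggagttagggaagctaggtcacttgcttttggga
Trim25 (chr11:88999303-88999402, plus): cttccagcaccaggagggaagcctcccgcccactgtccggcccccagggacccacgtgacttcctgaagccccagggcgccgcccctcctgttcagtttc
The match of the shorter form in Uba7, on the reverse strand and 27 to 19 bases before the RefSeq start, is printed with 10 bases on each side.
Uba7 (chr9:107975530-107975558, plus): ctcagtctagTTTCACTTTtggtttcctg
A match is a run of letters and not a measured binding site, and its absence covers only these letters in this window.

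The data are counts of unique molecular identifiers (UMIs), each standing for 1 captured RNA molecule. In the control library 43412346 UMIs fell on 7754 barcodes (median 2600), and in the library labelled LysM-Cre 48167632 UMIs fell on 6063 (median 4455). After filtering, 6652 and 5447 cells remained, and 8 barcode sequences occurred in both libraries. Each cell was put in a class by a gate on marker genes that include none of the 6 members, and a class name means "like" that cell type. Monocyte-like, macrophage-like and phagocyte cells between these 2 gates together are called mononuclear phagocytes. In every named class between 1 and 7 of its own markers, and none of another class, were among the 10 leading genes. Since the gate itself uses these markers, that count does not test the class names. Levels are given in CPM, a gene's UMIs in a class scaled to the total UMIs of that class. Fewer cells with a transcript and less of it in each cell cannot be told apart in a summed level, and CPM is not used here to rank one gene above another.

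Counts of the targeted gene were higher, not lower, in the library labelled LysM-Cre. Usp18 stood at 18.6 CPM in control mononuclear phagocytes (262 UMIs in 1772 cells, Poisson interval 16.4 to 21.0 CPM) and at 95.4 CPM in those of the library labelled LysM-Cre (2100 UMIs in 2658 cells, 91.4 to 99.6 CPM). Lyz2, which carries Cre, went with the label, at 9366 and 17.3 CPM in the same cells. Reads from 3′ ends do not show which exons the Usp18 transcripts hold, so a deleted transcript would be counted like a whole one. The pools also differed in the sex of the mice. Among kept cells outside the melanoma gate that held either Xist or Y-linked UMIs, but not both, 36.4% in the control library and 86.1% in the other held Xist. Since the Usp18 counts cannot show whether the gene was deleted, the second pool is called the library labelled LysM-Cre throughout.

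In control tumors each member had its own pattern across classes, with no class high for all 6. Isg15 was highest in migratory dendritic cells, which have matured and carry antigen to lymph nodes, at 129 CPM, but 1 cell held 35.3% of those UMIs. Neutrophil-like, monocyte-like, macrophage-like and cDC2-like cells followed at 91.1, 74.4, 63.8 and 63.2 CPM, neighbours whose intervals overlapped. At the other end B cells, the largest gated class there, held 4.50 CPM, 10 UMIs in 1408 cells.

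Uba7, the E1, was the most even. Plasmacytoid dendritic cells (pDC), the specialised makers of type I interferon, were highest at 57.1 CPM. Most other classes lay between 22.9 CPM in cDC1-like cells, which present tumor antigen to CD8 T cells, and 48.9 CPM in regulatory T cells, with overlapping intervals between neighbours. Melanoma-like and neutrophil-like cells were lowest, at 10.9 and 10.7 CPM.

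Ube2l6, the E2, singled out 1 class. Migratory dendritic cells stood at 96.9 CPM, and the next class, cDC2, at 23.1 CPM, the only neighbours in its order whose intervals did not overlap. Monocyte-like, macrophage-like, cDC1-like and cDC2-like cells lay close together, from 19.96 CPM in macrophage-like to 23.1 CPM in cDC2-like cells. NK cells held 0 UMIs of Ube2l6 in the control library, which allows up to 5.13 CPM, and 1 UMI in the other, and CD8 T cells held 5.40 CPM. Neutrophil-like cells (5.36 CPM, from 3 UMIs) and other T cells (6.28 CPM) were as low, with overlapping intervals.

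The E3 ligases were high in different control classes. Herc6 was highest in migratory dendritic cells (83.5 CPM) and in T and NK cells. Conventional CD4, regulatory, other T, NK and CD8 T cells held 71.4, 69.3, 65.2, 54.7 and 51.3 CPM, while B cells held 31.1 CPM. Herc6 was lowest in monocyte-like, macrophage-like and neutrophil-like cells, at 26.5, 18.4 and 7.15 CPM. Trim25 had its highest levels in neutrophil-like cells (170 CPM) and B cells (138 CPM) and its lowest in NK and melanoma-like cells (32.5 and 30.9 CPM). Pearson's correlation between the log2 levels of the pair over the 14 control classes was -0.55 (Spearman's -0.37), a description of classes that share a library and rest on unequal depth. Herc6 and Uba7 had the closest patterns of any pair in control, with 0.70 (Spearman's 0.75). Usp18 was low throughout, from 4.93 CPM in melanoma-like cells, where 1 cell held 76.3% of the UMIs, to 34.0 CPM in pDC, and the intervals of all neighbours in that order overlapped.

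**Figure D1:**
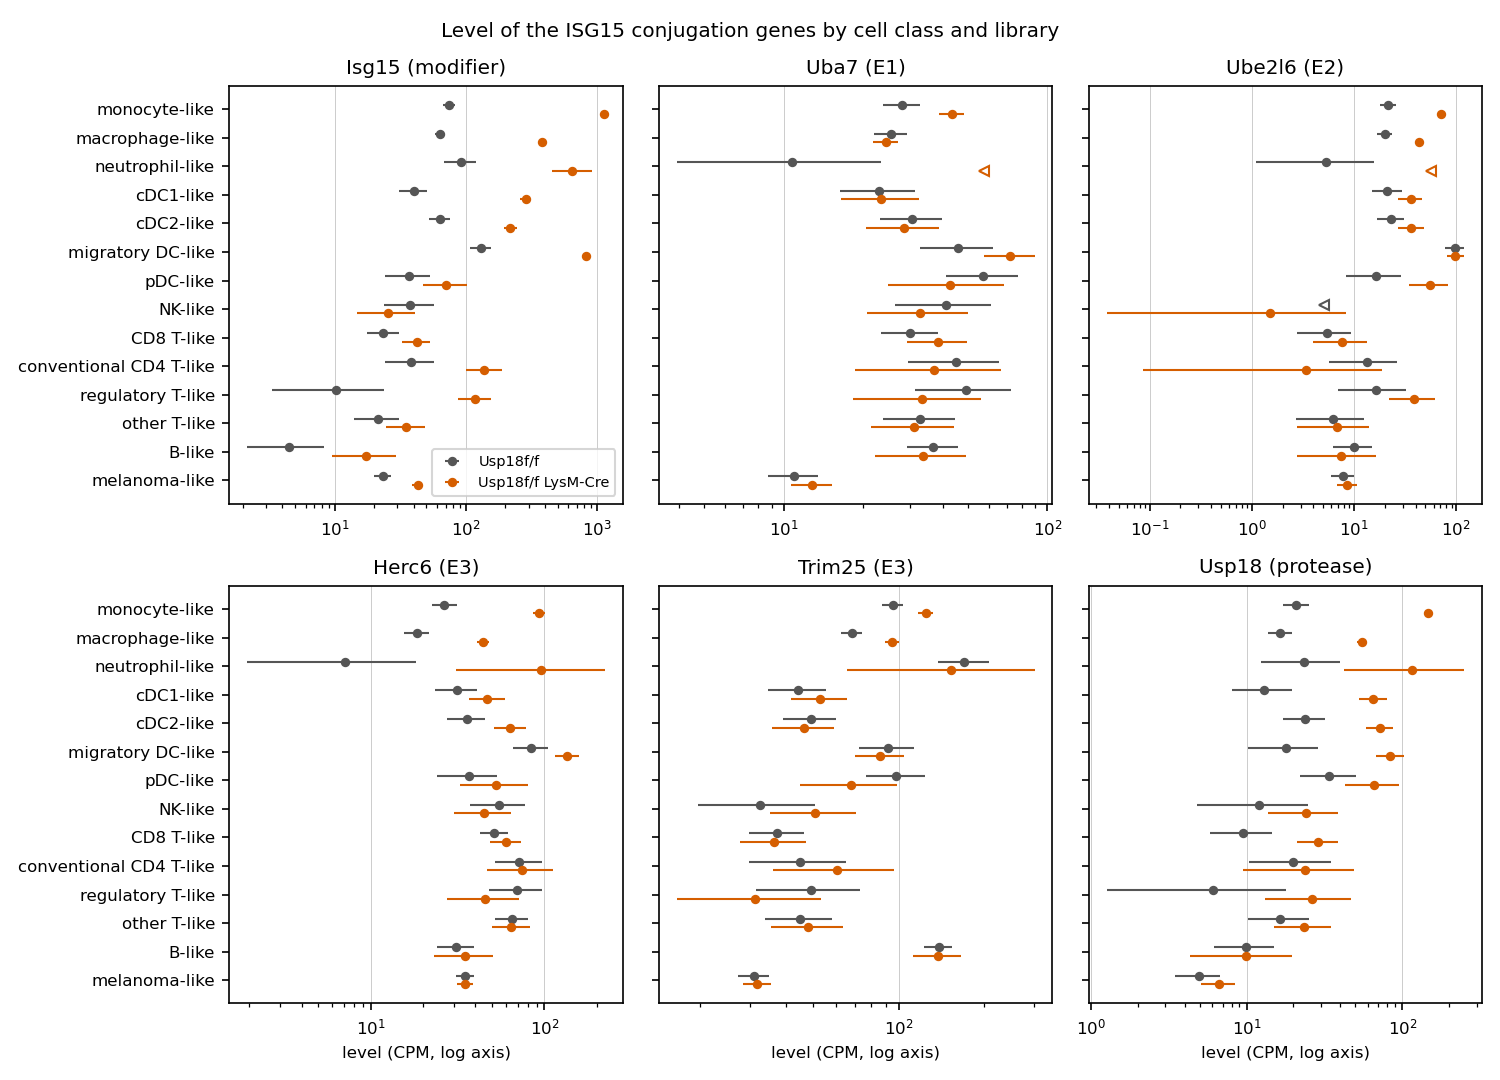
Level of each member in CPM (horizontal log axis) in 14 cell classes (vertical) of the control library (grey) and the library labelled Usp18f/f LysM-Cre (orange). Bars are exact Poisson 95% intervals, open triangles mark classes with no UMI at the limit that a count of 0 allows (3 UMIs); Isg15 and Usp18 are apart between the libraries in myeloid rows, while Trim25 and Uba7 overlap in most.

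In mononuclear phagocytes, the group with the most cells, the members differed between the libraries unequally by role. Of the 6 members, the modifier, the protease, the E3 Herc6 and the E2 (4 members) were at least 2-fold higher in the library labelled LysM-Cre, none was 2-fold lower, and the E1 and Trim25 differed little. Such a difference was scored on the log2 of CPM + 5, and of 11887 genes with at least 20 UMIs in these cells 0.909% were 2-fold or more higher and 0.0841% lower. The median log2 ratio of the 6 members was 1.30 and that of all genes -0.02.

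Isg15 went from 69.4 CPM (975 UMIs) in control mononuclear phagocytes to 704 CPM (15484 UMIs), 10.1-fold higher with a counting interval of 9.51 to 10.8. Usp18, at the levels given above, was 5.12-fold higher (4.50 to 5.84). Herc6 stood at 22.6 and 64.8 CPM, 2.86-fold (2.54 to 3.25), and Ube2l6 at 20.6 and 56.4 CPM, 2.74-fold (2.41 to 3.12). The counting intervals of the 4 ratios lay above 2 in each case. Trim25 measured 82.3 and 108 CPM, 1.31-fold (1.22 to 1.41), and Uba7 25.8 and 32.1 CPM, 1.24-fold (1.09 to 1.42). With classes from named clusters, which leave out an unnamed interferon-led cluster described further on, the log2 ratios of Isg15 and Usp18 were 1.81 and 0.98, 1 member passed, and Uba7 turned to -0.13. In cells with Y-linked UMIs alone 1 member, Isg15, was past 2-fold, with log2 ratios of 0.62 for Usp18, 0.83 for Ube2l6, 0.43 for Herc6 and -0.24 for Uba7. The share of all genes past 2-fold was not counted in either of these subsets, so their counts of members have no background.

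Relatives of the conjugation enzymes did not follow. Of 13 conjugation relatives, 0 were past 2-fold, with a median log2 ratio of -0.03. Uba1, the E1 for ubiquitin, stood at 99.9 and 105 CPM (1.05-fold, 0.98 to 1.12). Ube2l3, the relative of Ube2l6 that serves ubiquitin, stood at 240 and 273 CPM (1.14-fold). Among 6 measured deubiquitinases and related proteases none was past 2-fold, the highest being Usp25 with 85.9 and 117 CPM (1.36-fold). In the receptor and ISGF3 list 1 of 9 genes passed, the feedback inhibitor Socs1 (11.6 and 31.6 CPM). The signal carrier Stat2 stood at a log2 ratio of 0.97. Ifnar1 and Ifnar2, the receptor itself, were at 0.90-fold and 1.01-fold, and Itgal, part of the integrin that binds ISG15 outside cells, at 0.73-fold. Of 29 other interferon-stimulated genes 21 were 2-fold or more higher, with a median log2 ratio of 1.5, and Rsad2 (42.0 and 594 CPM) was the furthest. The members thus spanned the range of that list, Isg15 near its top and Uba7 and Trim25 under its lowest gene, Eif2ak2, at 0.64. These lists were compared by counts alone.

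The ratios of all members but Trim25 were higher in monocyte-like than in macrophage-like cells. Among monocyte-like cells (875 and 1324), Isg15 stood at 74.4 and 1122 CPM (15.1-fold, 13.6 to 16.7) and Usp18 at 20.8 and 147 CPM (7.04-fold, 5.80 to 8.62). Herc6 was 3.51-fold and Ube2l6 3.32-fold higher there, so 4 of 6 members passed, where 1.79% of all genes were 2-fold or more higher. For macrophage-like cells (796 and 1164) Isg15 stood at 63.8 and 378 CPM (5.93-fold, 5.41 to 6.51) and Usp18 at 16.4 and 54.8 CPM (3.34-fold, 2.77 to 4.06). Herc6 also passed there (2.41-fold) and Ube2l6 did not on the CPM + 5 scale (19.96 and 43.7 CPM), so 3 of 6 were past 2-fold against 0.596% of all genes. Trim25 was at 1.31-fold in monocyte-like and 1.39-fold in macrophage-like cells. Uba7 was at 28.0 and 43.5 CPM in monocyte-like cells but 25.4 and 24.4 CPM in macrophage-like ones. The phagocytes between the gates (101 and 170 cells), which were led by interferon genes and stay unnamed, had Isg15 at 90.1 and 1615 CPM, Usp18 at 26.1 and 217 CPM and Uba7 at 14.4 and 45.3 CPM (5 of 6 past 2-fold, where 3.68% of all genes were). One control cell held 37.7% of their Isg15 UMIs. Whether these class differences exceed the spread between mice was not tested.

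The same 2 genes led in conventional dendritic cells. In cDC1-like cells Isg15 measured 40.0 and 286 CPM and Usp18 12.9 and 65.1 CPM, and no other member passed (2 of 6, background 1.32%), though 1 cell held 26.4% of the Isg15 UMIs in the library labelled LysM-Cre. For cDC2-like cells Isg15 stood at 63.2 and 217 CPM and Usp18 at 23.6 and 71.5 CPM (2 of 6, background 0.999%). Ube2l6 and Herc6 were between 1.5-fold and 1.78-fold higher in these 2 classes. The direction of Ube2l6 turned with each cell counted alike in cDC1-like cells (log2 ratio -0.37) and with cells thinned to 1000 UMIs in cDC2-like cells (-0.20). The thinned value rests on 9 control cells and 5 of the other library with a UMI. With cells thinned to 2000 UMIs, 4.11% and 9.22% of cDC2-like cells held Ube2l6. In the same classes the summed macrophage and monocyte markers stood at 1258 and 1765 CPM (cDC1) and 1563 and 1802 CPM (cDC2).

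Migratory dendritic cells, whose Ube2l6 was already high in control, differed little in it between the libraries, at 96.9 and 98.1 CPM (1.01-fold, 0.76 to 1.35). After thinning cells to 1000 UMIs its log2 ratio was 1.08 in place of 0.02. That value rests on 6 control cells and 13 of the other library with a UMI. With cells thinned to 2000 UMIs, 18.0% and 21.6% of cells held Ube2l6. Over all migratory dendritic cells, not thinned, Isg15 went from 129 to 821 CPM and Usp18 from 17.8 to 83.3 CPM (2 of 6 past 2-fold, where 4.55% of all genes were). Without the cell richest in Isg15 in each library, a setting chosen after seeing the data, the log2 ratio of Isg15 went from 2.62 to 3.01. Herc6 went from 83.5 to 135 CPM there, its highest level of all classes in both libraries, though intervals overlapped with the next class. The summed level of the 16 macrophage and monocyte markers also differed in this class, from 319 to 1154 CPM, and Chil3 and Vcan were at 0 UMIs in control only. What part these markers' cells have in the Isg15 and Usp18 values was not tested.

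In each class of lymphocytes and in melanoma-like cells between 0 and 2 members passed, several from few UMIs. In T cells of all kinds together 1 of 6 members, Isg15, was past 2-fold (23.3 and 58.2 CPM, background 0.658%). CD8 T cells had Usp18 at 9.46 and 28.8 CPM (3.04-fold, 1.77 to 5.37) as their only member past 2-fold (1 of 6, background 0.57%), while the same 16 phagocyte markers stood at 654 and 1170 CPM, and their part in the value was not tested. In regulatory T cells Isg15 stood at 10.2 CPM, from 5 UMIs, and 117 CPM, from 49 UMIs (11.5-fold, 4.6 to 37.0), and Ube2l6 also passed (2 of 5 measured, background 2.5%), with phagocyte markers at 766 and 1386 CPM. Conventional CD4 T cells had 1 of 4 measured members past 2-fold (Isg15, background 1.77%), and 46.3% of its UMIs in the library labelled LysM-Cre came from 1 cell. Other T cells and NK cells had 0 of 5 (backgrounds 1.23% and 2.14%). In NK cells Isg15 was at 37.6 and 25.4 CPM, within counting error. B cells had Isg15 at 4.50 and 17.4 CPM, from 10 and 14 UMIs (1 of 6, background 0.402%; the log2 ratio was -0.50 once free RNA was subtracted), and Trim25 at 138 and 137 CPM. pDC, with the highest control Usp18, had Ube2l6 past 2-fold from 12 and 22 UMIs (1 of 6, background 0.916%) and Usp18 at 34.0 and 65.3 CPM. Melanoma-like cells, which the CD45 sort should remove, had 0 of 6 past 2-fold (background 0.217%), and Herc6 stood at 35.0 and 34.8 CPM; their median depths, 51058 and 3181 UMIs, were far apart.

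Neutrophil-like cells, another class in which Lyz2 is active, numbered 470 and 24, too few in the second library for a ratio. Their levels there rest on 8 UMIs of Trim25, 6 of Usp18 and 5 of Herc6, the last all in 1 cell, while Isg15 had 34 UMIs, 649 CPM.

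**Figure D2:**
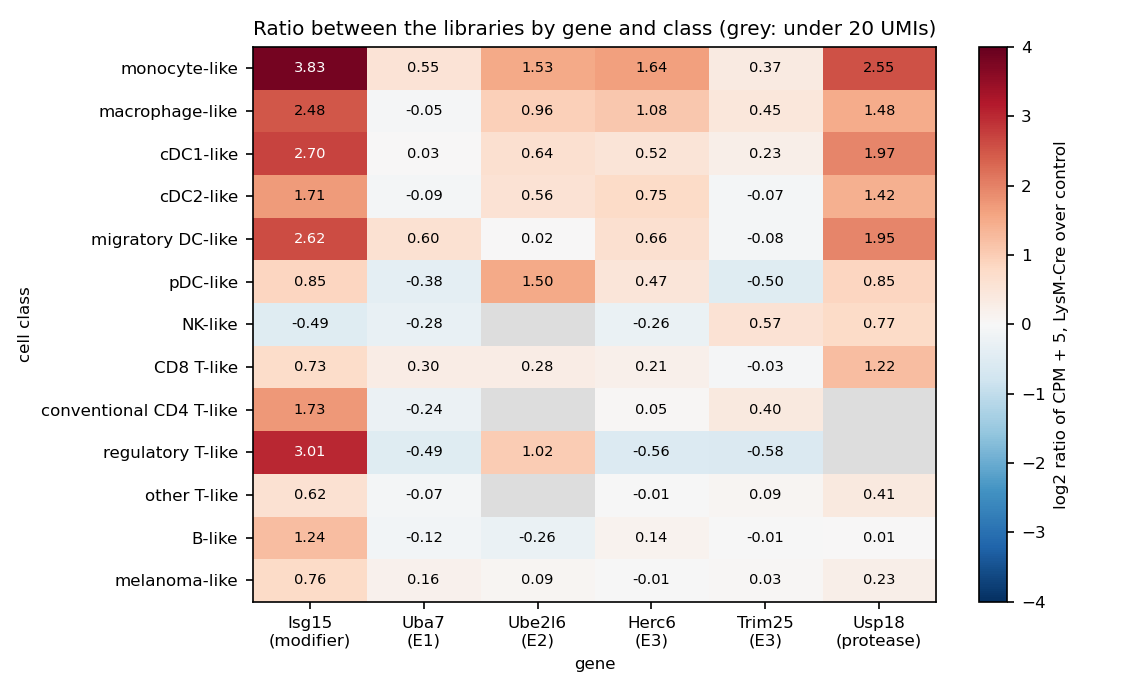
Log2 ratio of CPM + 5 between the library labelled Usp18f/f LysM-Cre and the control library (colour scale and printed values) for the 6 members (columns) in 13 cell classes (rows), grey where a gene had under 20 UMIs. The Isg15 and Usp18 columns are high over the monocyte, macrophage, cDC1, cDC2 and migratory dendritic rows, and at 0.85 each in the pDC row. Isg15 is also high in the regulatory and conventional CD4 T rows (3.01 and 1.73), while no drawn value of the Uba7 and Trim25 columns reaches 1 either way.

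The ratio of Usp18 to Isg15 molecules differed by class and library. It is not a ratio of true molecule numbers, since capture differs between genes, but it can be compared between classes. Control monocyte-like cells held 28.0 Usp18 UMIs per 100 Isg15 UMIs (22.5 to 34.5) and those of the library labelled LysM-Cre 13.1 (12.3 to 13.9). Macrophage-like cells went from 25.7 (21.0 to 31.2) to 14.5 (13.4 to 15.7). For both, Usp18 was higher in the second library but by less than Isg15. The ratio in cDC2-like cells was 37.4 and 32.9, with overlapping intervals, and in pDC 92.6 and 92.9. Migratory dendritic cells had few Usp18 UMIs for their Isg15 in both libraries, 13.8 and 10.1 per 100.

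Leiden clusters, found without the members or the interferon lists, showed where among the mononuclear phagocytes the transcripts lay. Related genes outside those lists were not left out, and of these Ifit1bl1 and Ifit3b are among the leading genes of the next cluster. A cluster led by Rsad2, Cmpk2 and Ifit genes, which could not be named, held 118 cells in control and 601 in the other library. It had Isg15 at 131 and 2381 CPM, Usp18 at 33.2 and 293 CPM, Herc6 at 25.9 and 159 CPM, and Ube2l6 at 23.1 and 118 CPM. Even Uba7 (25.9 and 59.8 CPM) and Trim25 (91.4 and 174 CPM) were higher in the second library in this cluster. Since Isg15 is among the cluster's own leading genes, these levels are a description only.

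Outside that cluster Isg15 and Usp18 were lower in the library labelled LysM-Cre than inside it, but Isg15 still ran the same way between the libraries. A monocyte cluster with Vcan and Chil3 (398 and 511 cells) held Isg15 at 93.4 and 360 CPM and Usp18 at 18.4 and 52.8 CPM. Another monocyte cluster, led by Hp and Chil3 (211 and 211 cells), held Isg15 at 73.7 and 526 CPM and Usp18 at 22.0 and 106 CPM. An unnamed cluster led by Ace (148 and 117 cells) held Isg15 at 25.8 and 173 CPM and Usp18 at 9.20 and 41.0 CPM. For the C1q-rich macrophage cluster (369 and 479 cells) these were 61.2 and 166 CPM for Isg15, and 15.8 and 28.8 CPM for Usp18. Cycling macrophages, led by histone genes and Mki67 (155 and 178 cells), had Isg15 at 46.9 and 84.2 CPM and Usp18 at 16.2 and 24.2 CPM. A shallow macrophage cluster (69 and 286 cells, median 956 and 781 UMIs) had Isg15 at 165 and 266 CPM, from 24 and 81 UMIs, and Usp18 at 34.3 and 52.5 CPM, from 5 and 16. Trim25 had its own high point in an Arg1 and Thbs1 cluster (338 and 313 cells), at 216 and 192 CPM, where Usp18 was only 15.6 and 33.1 CPM and Uba7 28.2 and 11.8 CPM. The level of Trim25 among phagocytes therefore did not run with that of the modifier in control, and Isg15 in that cluster stood at 47.7 and 421 CPM.

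Per cell, detection was compared after each cell was thinned to 1000 UMIs. Isg15 had a UMI in 5.42% of control mononuclear phagocytes (4.41 to 6.60) and in 28.3% (26.5 to 30.1) of those in the library labelled LysM-Cre. Without thinning the shares were 22.1% and 55.9%. For Usp18 the thinned shares were 2.08% and 9.73%, and for Trim25 8.77% and 12.2%. B cells, thinned alike, held Isg15 in 0.515% and 2.15% of cells and Usp18 in 0.882% and 0.957%, a level at which free RNA cannot be told apart from expression. Before thinning the median phagocyte held 6637 and 6098 UMIs, and the median B cell 1500 and 1764. Thinning left out 39 and 202 mononuclear phagocytes and 48 and 15 B cells.

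How the members went together was read in mononuclear phagocytes thinned to 2000 UMIs, 1693 control cells and 2296 of the library labelled LysM-Cre. In control, Spearman correlations were low, the highest being 0.14 for Isg15 with Herc6. Isg15 with Usp18 had a Spearman value of 0.11 but a Pearson value of 0.41 in control, against 0.42 and 0.59 in the other library. In the other library all 15 Spearman values were positive, from 0.06 to 0.42, and Isg15 with Usp18 was the closest pair. Isg15 with Herc6 followed at 0.295, then Usp18 with Herc6 and Isg15 with Ube2l6, both 0.23. The pairs without Isg15 or Usp18 reached at most 0.12. Values this low in sparse counts are given as a description, and the cells of a library share depth and source.

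The shares of cells show the pattern more directly. In the library labelled LysM-Cre 28.8% of phagocytes with an Isg15 UMI also held Usp18, against 5.06% of those without. The control shares were 10.3% and 3.12%. Herc6 was in 21.1% and 5.63% of the cells with and without Isg15 in the library labelled LysM-Cre, Ube2l6 in 18.4% and 6.63%, and Uba7 in 11.7% and 4.13%. Trim25 split least, with 25.9% and 14.5%, and in control it was no commoner beside Isg15, at 13.5% and 15.4%. The share of cells with at least 4 of the 6 members was 0.12% in control and 5.18% in the other library, and with none 66.8% and 42.6%. A single cell of 2296 held all 6.

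**Figure D3:**
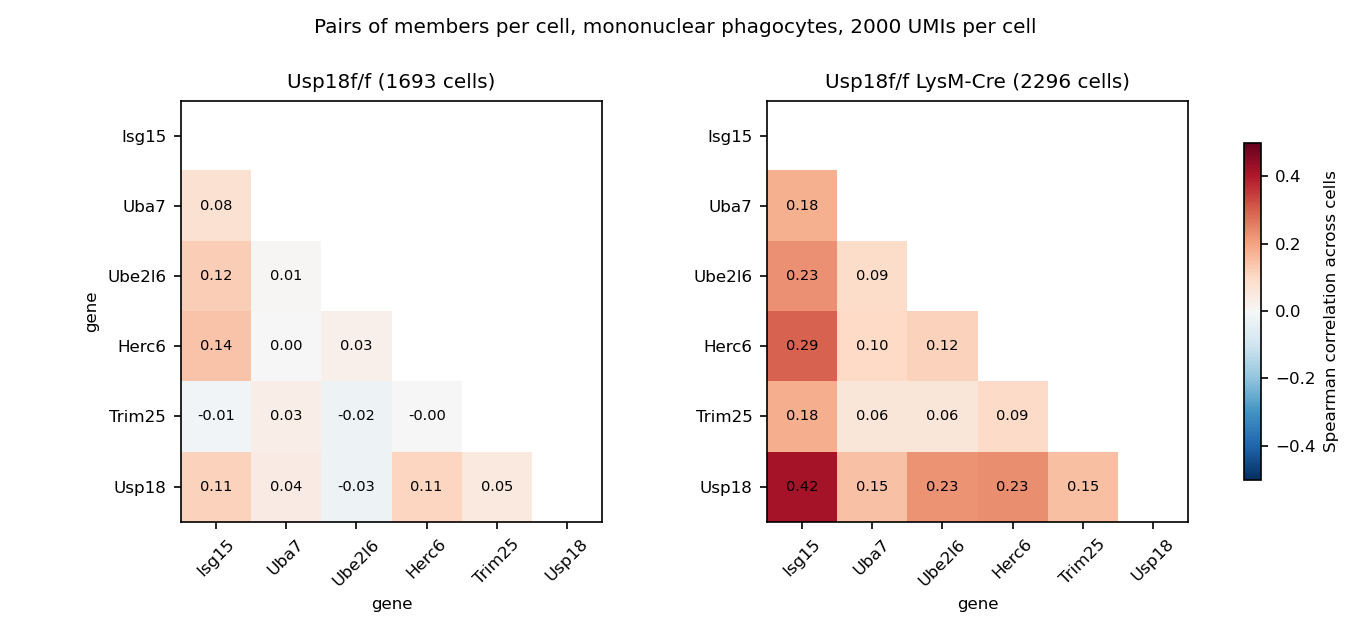
Spearman correlation across cells for each pair of members in mononuclear phagocytes thinned to 2000 UMIs, for the control library (left, 1693 cells) and the library labelled Usp18f/f LysM-Cre (right, 2296 cells). Control values lie between -0.03 and 0.14, and those of the other library between 0.06 and 0.42, with Isg15 and Usp18 the darkest cell.

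With mononuclear phagocytes matched for interferon level, most members had ratios between the libraries whose intervals included no difference. Matched apart, monocyte-like and macrophage-like cells gave other values for some members, Usp18 and Ube2l6 among them. Thinned mononuclear phagocytes were split by their UMIs of the 29 other interferon-stimulated genes, which hold none of the members. The lowest bin, 0 to 2 such UMIs, held 43.5% of control cells and 10.2% of those in the library labelled LysM-Cre, and the highest, 48 or more, held 4 control cells and 171 cells (7.45%) of the other.

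Within a library Usp18 followed these bins closely. From the lowest to the highest bin it went from 2.98 to 155 UMIs per 100 cells in the library labelled LysM-Cre, and in control from 1.5 to 54.5 in the bin of 24 to 47 UMIs. That bin held only 22 control cells, and 39.5 Usp18 UMIs per 100 cells in the other library, with overlapping intervals. Isg15 went from 5.53 to 1404 UMIs per 100 cells in the library labelled LysM-Cre, where the highest bin held 57.1% of all its UMIs. Herc6 went from 2.55 to 75.4 and Ube2l6 from 0.85 to 58.5. Trim25 changed little over the first 3 bins in either library (from 14.0 to 21.3) and reached 68.4 in the highest bin of the library labelled LysM-Cre. Uba7 had the shallowest course there beside Trim25, from 3.40 to 28.1.

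Cells were then weighted to the same mix of the 5 bins with at least 20 cells in each library. The ratio of Usp18 between the libraries went from 4.99 over all bins to 0.88 (0.62 to 1.24). In the units above, its control level went from 4.43 to 9.53, and that of the other library from 22.1 to 8.36. The uppermost of these 5 bins held few control cells, and how far the matched values rest on it was not tested. Matching leaves out the highest bin, so for each gene the first ratio and the matched one cover different cells. How much of a fall comes from leaving out that bin was not tested. Herc6 went from 3.16 to 0.89 (0.65 to 1.22), Ube2l6 from 2.93 to 0.99 (0.68 to 1.42) and Trim25 from 1.20 to 0.92 (0.77 to 1.10). The matched intervals of these 4 genes all included 1. Isg15 went from 12.8 to 1.52 (1.28 to 1.80), so it stayed higher within these bins. Uba7 went the other way, from 1.44 to 0.69 (0.49 to 0.98). Each bin spans a range of levels, and differences between the libraries within a bin were not matched. Among monocyte-like cells matched over 4 bins Isg15 was at 2.0 (1.54 to 2.6), Ube2l6 at 1.72 (1.06 to 2.79) and Usp18 at 0.78 (0.46 to 1.31). Macrophage-like cells gave 1.59 (1.22 to 2.08) for Isg15 and 1.88 (1.07 to 3.31) for Usp18. In T cells of all kinds Usp18 kept a ratio of 1.88 (1.14 to 3.08) after matching, against 2.41 before, while Isg15 went from 2.37 to 1.41 (0.94 to 2.09). The bins are themselves a measured outcome, so these values describe which transcripts go together and do not adjust for a treatment.

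**Figure D4:**
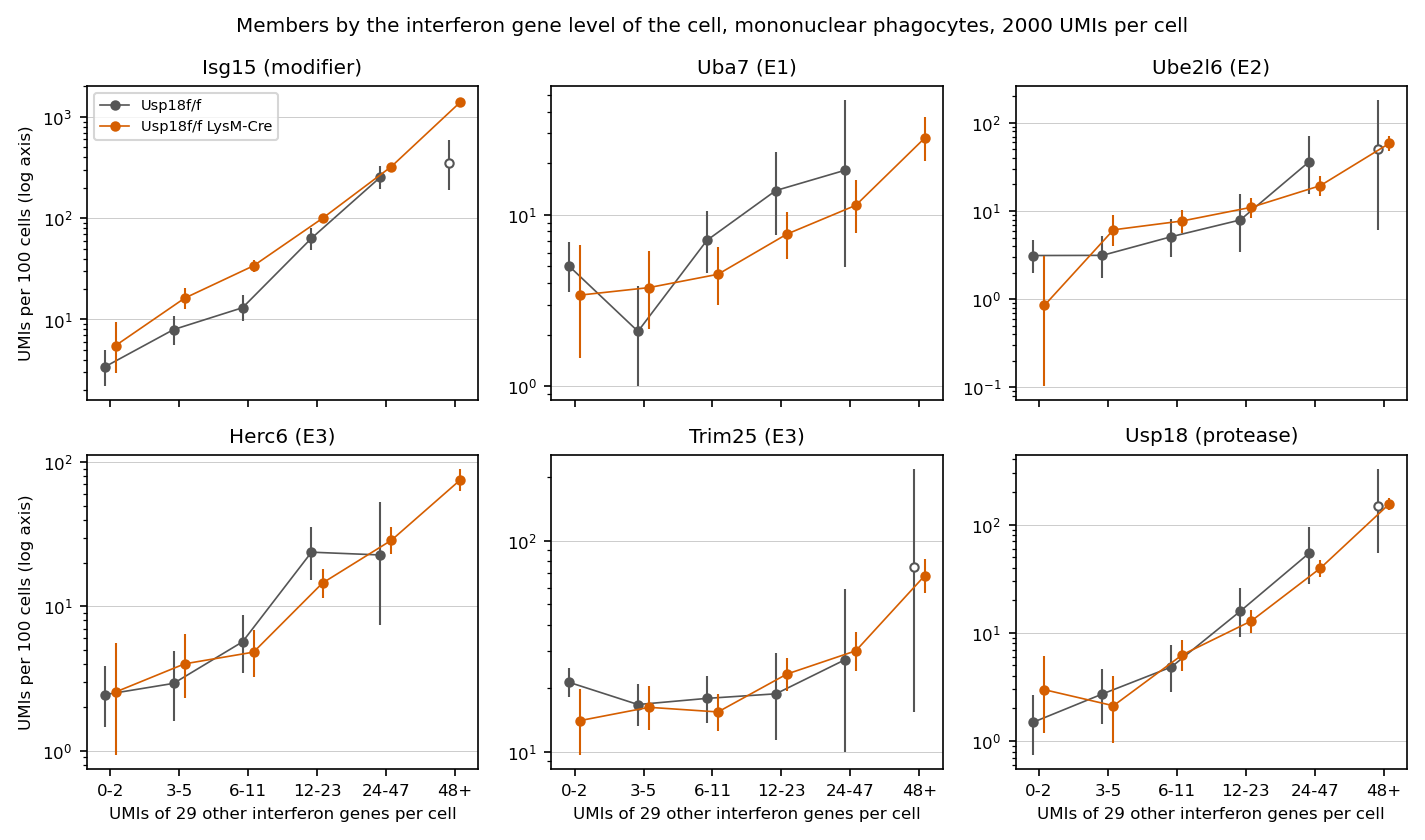
UMIs of each member per 100 mononuclear phagocytes (vertical log axis) by the cell's UMIs of 29 other interferon-stimulated genes (horizontal bins), after thinning to 2000 UMIs, control in grey and the library labelled Usp18f/f LysM-Cre in orange. Bars are exact Poisson 95% intervals, open points are bins with under 20 cells, and bins with no UMI are not drawn; the Usp18 points of the libraries overlap in the first 5 bins while Isg15 stays higher in the orange series in the bins of 3 to 23 UMIs.

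The libraries were also compared within the cells of each sex. Mononuclear phagocytes with Xist and no Y-linked UMI numbered 422 and 1771, and those with Y-linked UMIs and no Xist 852 and 346. With Xist, Isg15 stood at 94.3 and 876 CPM (9.30-fold, 8.28 to 10.5) and Usp18 at 17.4 and 115 CPM (6.60-fold, 5.04 to 8.83). With Y-linked UMIs, Isg15 stood at 55.4 and 151 CPM (2.73-fold, 2.40 to 3.10) and Usp18 at 18.0 and 30.3 CPM (1.69-fold, 1.31 to 2.18). Both genes were thus higher in the library labelled LysM-Cre in the cells of each sex, by different amounts, and the labels do not say which tumors of a pool were from which sex. Herc6 was 3.0-fold and 1.44-fold higher, and Ube2l6 2.40-fold and 2.0-fold, in cells with Xist and with Y-linked UMIs. Trim25 was at 1.26-fold and 1.10-fold, and Uba7 at 1.43-fold and 0.81-fold (0.62 to 1.06). Among T cells with Xist, Isg15 was at 1.25-fold (0.87 to 1.85) and Usp18 at 1.21-fold (0.72 to 2.09), both including no difference, against 2.49-fold and 2.12-fold in all T cells. T cells with Y-linked UMIs had Usp18 at 7.78 and 35.8 CPM (4.6-fold, 1.95 to 10.4) and Isg15 at 2.22-fold (0.97 to 4.63), but the second library held only 78 such cells, with 11 Usp18 UMIs.

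**Figure D5:**
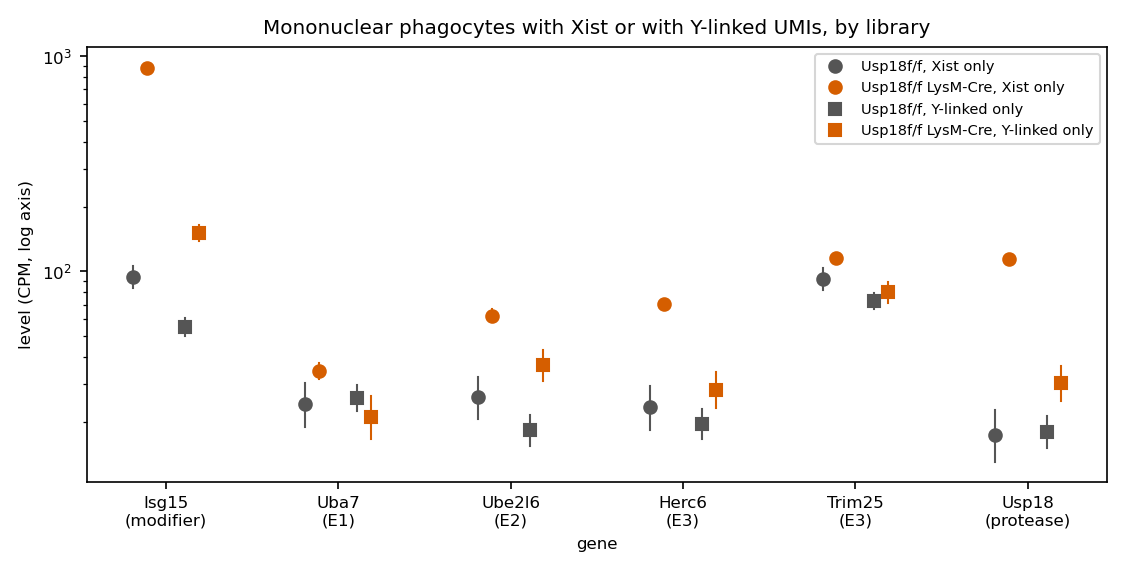
Level of each member in CPM (vertical log axis) in mononuclear phagocytes with Xist (circles) or with Y-linked UMIs (squares), control in grey and the library labelled Usp18f/f LysM-Cre in orange, with exact Poisson 95% intervals. Isg15 and Usp18 are higher in orange for both kinds of cell and further apart for circles, 876 against 94.3 CPM and 115 against 17.4 CPM.

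The genes whose patterns over 27 profiles (14 control classes and 13 of the library labelled LysM-Cre) were most like each member differed by role, among 11165 genes ranked by Pearson's correlation of log2(CPM + 5). Usp18 was closest to Irf7 (0.90), Mx1 (0.82), Oasl1 (0.80), Oasl2 (0.79) and Daxx (0.77), and Isg15 to Oasl1 (0.87), Ifih1, Rsad2, Ifit1 and Il18bp. Most of these are interferon-stimulated, and 4 of the 5 of each member are on the list above. Herc6 was closest to Psme2 (0.76), Zfp800, Nrip1, Plekhg2 and Nt5c, and Uba7 to Gm13212 (0.85), Il21r, Rftn1, Gpr183 and H2-T22. Ube2l6 was closest to Npc2 (0.84), Palld, Ccdc28b, Adrbk2 and Ifi30, and Trim25 to Cyp4f18 (0.81), Rhoa, Irak3, Ncf1 and Snap29. None of the 5 genes nearest to these 4 members is on the interferon lists. Those lists are short fixed sets, so absence from them does not show that a gene is not interferon-stimulated. Between members the closest pair over the 27 profiles was Isg15 with Usp18 (0.84, Spearman's 0.73), followed by Uba7 with Herc6 (0.70) and Isg15 with Ube2l6 (0.69).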

How the data were processed

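The deposited matrices hold unnormalized UMI counts, made with Cell Ranger 3.0.1 on mm10, per the submitters' processing notes; the labels give the 10x Genomics 3' kit, version 3. Barcodes needed 200 genes or more, with mitochondrial UMIs of up to 10%, and the highest Scrublet doublet scores were removed at 0.8% per 1000 barcodes (481 and 294 barcodes). A cell took the class with the highest mean of its markers' log-normalized UMIs, each scaled to its 95th percentile, given at least 2 markers, a score of at least 0.15 and a lead of 0.05; these limits were set after the values were seen. Of monocyte-like cells 11.1% and 11.3%, and of macrophage-like cells 9.2% and 8.5%, led the next class by under 0.1. Ungated cells were 7.35% and 6.68%. The members and lists were chosen with earlier results of these data known. Of the 30 other interferon-stimulated genes 29 were matched.

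CPM carry exact Poisson, shares Clopper-Pearson and ratios conditional binomial 95% intervals; matched ratios carry log-normal ones. Ratios used log2(CPM + 5), classes of at least 50 cells per library and genes of at least 20 UMIs; for a count of 0 the limit is 3 UMIs. Leiden clusters (scanpy 1.11.5, leidenalg 0.10.2, resolution 1) were an alternative. Named were the members, genes of the lists, markers, and the 5 genes most like each member among those with at least 200 UMIs; leading genes of clusters were named after their values were seen. Of 27998 gene identifiers, 98.7% were in GENCODE M21. The scripts were tested on simulated data. Python 3.11.15 and scipy 1.17.1 were used.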

Additional observations from a re-analysis of the deposited data

Results flagged for a closer look

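Among T cells with Xist, Uba7 was 0.678-fold (0.48 to 0.97) and Herc6 0.70-fold (0.54 to 0.92) in the library labelled LysM-Cre, while in mononuclear phagocytes with Xist they were 1.43-fold and 3.0-fold, and the counting intervals lay on opposite sides of 1. The difference between T cells and phagocytes was not tested, since each library is 1 pool. Over all T cells both genes stood near 1, at 1.02-fold each.

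The 489 control and 364 other cells that passed no gate lay outside the comparisons above. Isg15 was 12.8-fold higher there (55.6 and 714 CPM), Usp18 5.57-fold (17.2 and 95.8 CPM), Herc6 2.77-fold and Ube2l6 2.59-fold. Uba7 and Trim25 in these cells were at 1.16-fold (0.83 to 1.63) and 1.08-fold (0.87 to 1.35).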

How the results depend on the processing

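Over 13 alternatives, of which 2 were chosen after seeing the data, the log2 ratios in mononuclear phagocytes ran from 1.37 to 3.57 for Isg15, 0.62 to 2.42 for Usp18, 0.43 to 1.64 for Herc6, 0.77 to 1.45 for Ube2l6 and 0.08 to 0.47 for Trim25, all above 0, against 3.25, 2.09, 1.34, 1.26 and 0.37. Uba7 (0.27) turned to -0.13 with classes from named Leiden clusters and to -0.24 in cells with Y-linked UMIs. Named clusters also gave 1.81 for Isg15, 0.98 for Usp18, 0.77 for Ube2l6, 0.71 for Herc6 and 0.08 for Trim25, so that 1 member in place of 4 was past 2-fold. That alternative leaves out the unnamed interferon-led cluster by construction. With all clusters made mostly of gated phagocytes, named or not, the values were 3.35 for Isg15, 2.17 for Usp18 and 4 members past 2-fold. Cells with Y-linked UMIs gave 1.37 for Isg15, 0.62 for Usp18, 0.83 for Ube2l6, 0.43 for Herc6 and 0.13 for Trim25, again with 1 member past 2-fold, and cells with Xist 3.15 for Isg15 and 2.42 for Usp18. The share of all genes past 2-fold was not counted under these alternatives. Thinning to 1000 UMIs gave 3.57, 0.58, 0.47 and 2.29 for Isg15, Uba7, Trim25 and Usp18. Counting each cell alike gave 3.39, 1.64 and 2.29 for Isg15, Herc6 and Usp18. A pseudocount of 1 CPM gave 2.30 for Usp18, and a mitochondrial limit of 5% gave 3.41 for Isg15. Elsewhere directions turned for Trim25 in monocyte-like cells (-0.02 with named clusters, -0.01 with Y-linked UMIs), Ube2l6 in cDC1-like cells (-0.37, each cell alike) and in cDC2-like cells (-0.20, thinned), and Isg15 in B cells (-0.50) and melanoma-like cells (-0.01) once 5% of the library-wide level was subtracted as free RNA. The thinned value of Ube2l6 in cDC2-like cells rests on few cells with a UMI. Apart from subtraction and thinning, causes were not tested. No paired analysis was possible because each group is 1 library. Depth limits the neutrophil, lymphoid and pDC values, many of which rest on under 30 UMIs.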
